A study of Mus musculus with 7 samples.

Results

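The 10 genes described here carry the peptide signals that set the tone of an artery and the cyclic GMP (cGMP) pathway that relaxes it. They were listed by name, with no threshold on their values, and are 10 of the 32544 genes in the table. Edn1 encodes the precursor of endothelin-1, Ece1 the enzyme that cuts the precursor to the active peptide, and Ednra and Ednrb its receptors. Ace encodes angiotensin-converting enzyme and Agtr1a an angiotensin II receptor. Npr1 encodes the natriuretic peptide receptor that makes cGMP, and Npr3 the receptor that removes natriuretic peptides. Prkg1 encodes a cGMP-dependent protein kinase and Pde5a a phosphodiesterase that breaks cGMP down.

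In an artery, endothelin-1 is made mainly by the endothelium and contracts the smooth muscle beneath it, largely through the receptor encoded by Ednra, while endothelial Ednrb can release nitric oxide and clear the peptide. Angiotensin II, made by Ace at the endothelial surface, contracts smooth muscle through its type 1 receptors. Natriuretic peptides and nitric oxide oppose both by raising cGMP, the former through membrane receptors such as Npr1 and the latter through soluble guanylate cyclase, and cGMP acts through Prkg1 until phosphodiesterases such as Pde5a hydrolyse it.

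RNA came from whole abdominal aortas of male Apoe-/- mice. These mice lack apolipoprotein E, which predisposes to atherosclerosis, and both groups carried the same genotype and 12 weeks of high-fat feeding. The first group received ITA-LNP (n = 3 libraries) and the second control-LNP (n = 4), given at 50 mg/kg into a vein every week. LNP usually stands for lipid nanoparticle, and ITA was read from the series title as itaconate, a metabolite of activated macrophages. The age of the mice at the start is not given in the sources used here. A high-fat-fed Apoe-/- aorta is a model of plaque growth, and no group without the diet or without an injection was analysed here. Whether every library is its own mouse is not said in the labels. The p-values therefore weigh the group difference only against the spread between these libraries, which may be partly technical.

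The libraries held 5077073 to 7281721 reads, and 3 reads corresponded to 0.412 to 0.591 CPM (reads per 1000000 reads), the upper limit taken for a gene at 0. This limit covers counting error only. Reads came from the 3′ end of transcripts, so CPM follows the number of transcripts and not their length. Control-LNP replicate 2 stood apart: on the log2(CPM + 1) scale over all genes it correlated with replicates 1, 3 and 4 of its group at 0.73 to 0.74, against 0.97 between those 3 and 0.86 to 0.88 within ITA-LNP. It also had the fewest genes detected, 10846 against 12226 to 15333 in the other 6 libraries. The results for the 10 genes are therefore given with and without it, and other named genes also without it where the call changed or the fold change moved by over 1.5 times. The 2 groups also differed in cell type markers. All 9 smooth muscle markers were higher in ITA-LNP, with sums of 17358 to 21173 CPM against 438 to 618 CPM. Of 10 endothelial markers 8 were higher, with sums of 1299 to 1670 CPM against 222 to 456 CPM. All 8 platelet markers were lower, with sums of 135 to 202 CPM against 10102 to 14358 CPM, and the erythroid sum was 2550 to 4229 CPM against 12386 to 44748 CPM. The contractile gene Myh11, a defining marker of the smooth muscle of an aorta, averaged 1561 ± 160 CPM (SD, n = 3) in ITA-LNP and 7.02 ± 3.30 CPM (SD, n = 4) in the libraries labelled control-LNP. In bulk tissue, fewer cells of a type and less RNA per cell cannot be told apart, and the part of cell composition in the results below was not tested.

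The positions are those of GENCODE M21 on mm10. Edn1 lies on chromosome 13 from 42301476 to 42307990 (plus strand), Ece1 on chromosome 4 from 137862237 to 137965229 (plus), Ednra on chromosome 8 from 77663031 to 77724464 (minus) and Ednrb on chromosome 14 from 103814625 to 103844402 (minus). Ace lies on chromosome 11 from 105967945 to 105989964 (plus) and Agtr1a on chromosome 13 from 30336441 to 30382867 (plus). Npr1 lies on chromosome 3 from 90450591 to 90465866 (minus), Npr3 on chromosome 15 from 11839896 to 11907287 (minus), Prkg1 on chromosome 19 from 30564489 to 31765033 (minus) and Pde5a on chromosome 3 from 122728947 to 122859374 (plus). Edn1, Ednra, Ace, Npr1, Npr3 and Pde5a share exon bases with a non-coding gene on the other strand. Strand handling was not given in the sources used here, so within the shared bases reads of these 6 genes and of their partners cannot be told apart. How many reads lay there was not tested.

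The promoters of Edn1 and Npr1 are shown because these genes had the largest differences between the groups. The sequences are from RefSeq on GRCm38.p6, 5′ to 3′ on the strand of the gene. Starts are the annotated ones, and whether transcription began there in these libraries was not tested. In the first pair the 250 bases before the transcription start are printed, for Edn1 chr13:42301226-42301475 (plus strand) and for Npr1 chr3:90465867-90466116 (minus strand). Capitals in Npr1 mark a pair of adjoining GC boxes (GGGCGG, read here on the opposite strand as CCGCCC). The last pair shows 22-base stretches just after the Edn1 start, chr13:42301476-42301497 and chr13:42301504-42301525, with capitals for a GATA motif (AGATAA, on the opposite strand) and an AP-1 motif (TGACTNA).
Edn1 promoter: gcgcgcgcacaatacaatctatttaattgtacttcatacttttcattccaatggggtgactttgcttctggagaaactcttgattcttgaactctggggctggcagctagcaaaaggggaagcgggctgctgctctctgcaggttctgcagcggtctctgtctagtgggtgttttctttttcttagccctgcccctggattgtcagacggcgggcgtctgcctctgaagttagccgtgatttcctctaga
Npr1 promoter: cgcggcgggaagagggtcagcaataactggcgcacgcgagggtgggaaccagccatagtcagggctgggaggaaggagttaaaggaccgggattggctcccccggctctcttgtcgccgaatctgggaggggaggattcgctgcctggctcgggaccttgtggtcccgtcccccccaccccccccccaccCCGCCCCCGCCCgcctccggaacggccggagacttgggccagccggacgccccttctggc
Edn1 GATA: gccgggtcTTATCTctggctgc
Edn1 AP-1: cctgtgggTGACTAAtcacaca

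Promoter windows of 300 bases, 250 before to 50 after a start, were matched for 9 of the 10 genes. Both strands were searched for 4 motifs. The GATA motif was present in 11.2% of all 32817 windows in the table, in that of Edn1 and in 1 of the 2 windows of Prkg1. The AP-1 motif was present in 13.9% of all windows and in those of Edn1 and Npr3. A GC box was present in 35.6% of all windows and in at least 1 window of Ece1, Ace, Npr1, Prkg1 and Pde5a. The CArG box, the element bound by serum response factor, was present in 1.63% of all windows and in none of these genes' windows. No motif of the 4 was present for Ednra or Ednrb. These matches describe letters only, and none was shared by all the genes that were higher in ITA-LNP.

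Of the 10 genes, 7 passed the filter on low values (log2(CPM + 1) averaging 1 or more across the 7 libraries), and Ednra, Agtr1a and Prkg1 did not. By limma-trend with Benjamini-Hochberg adjustment over 12636 genes, Npr1, Edn1, Ece1 and Ednrb were higher in ITA-LNP at an adjusted p under 0.05 and none was lower. Over all genes tested, 10.3% were higher and 5.15% lower (1306 and 651 genes), and median centring of the libraries turned this split to 741 higher and 1249 lower. Without control-LNP replicate 2, 9 of the 10 genes passed the filter and 6 were higher, Ace and Npr3 being added, where 15.4% of all genes were higher. The groups did not overlap, with ITA-LNP higher, for 5 of the 7 tested genes (Edn1, Ece1, Ednrb, Ace and Npr1) and for 19.1% of all genes tested. Edn1, Ednrb and Npr1 passed the filter only through their ITA-LNP level, so the count over the tested genes and their median are a description. The median log2 fold change of the 7 was 3.45, the value of Ednrb, and that of all genes tested was 0.15. The genes below the filter were at 1.30 (Ednra), 0.001 (Agtr1a) and 1.28 (Prkg1) when no filter was used.

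**Figure D1:**
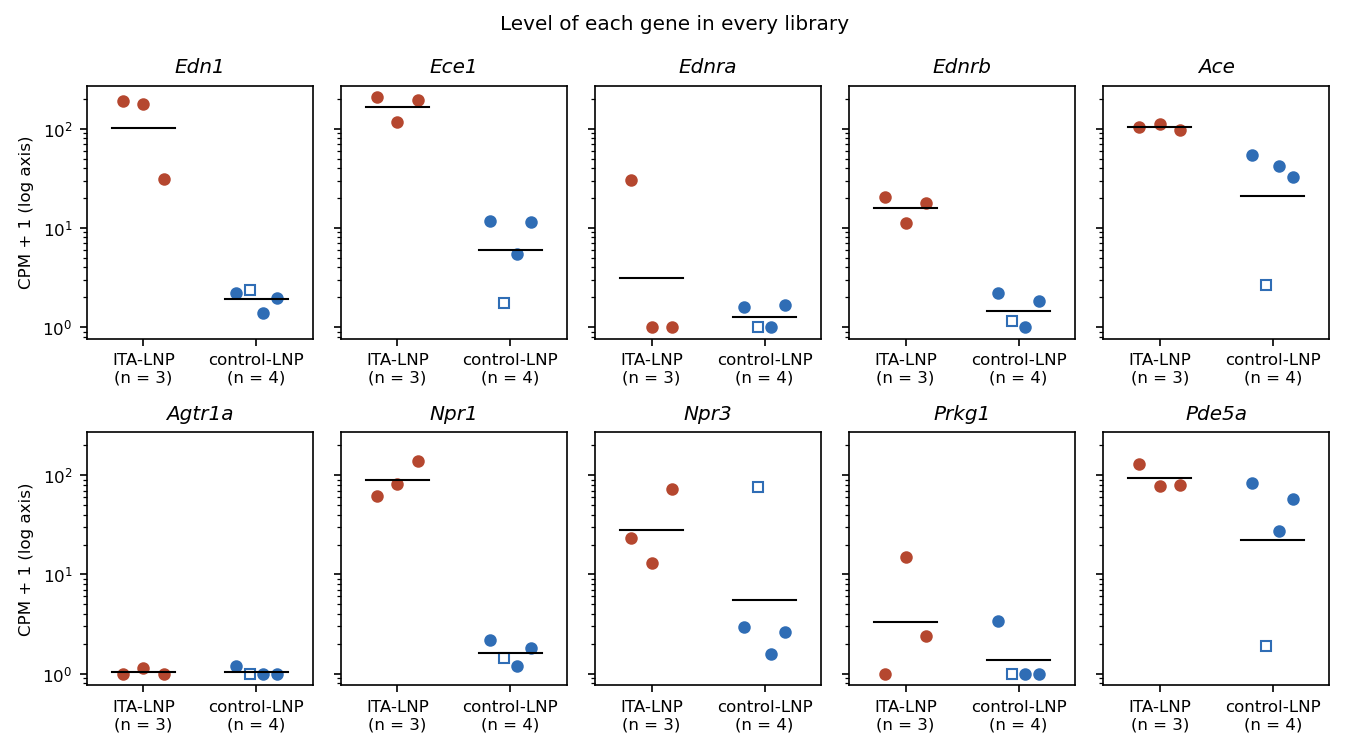
Level of each of the 10 genes as CPM + 1 on a log axis, with 1 point per library (ITA-LNP in red, n = 3; control-LNP in blue, n = 4; open square, control-LNP replicate 2) and a line at the mean of the log values. Edn1, Ece1, Ednrb, Ace and Npr1 separate the groups, Npr3 has its highest value in control-LNP replicate 2, and Agtr1a lies at the bottom of the axis throughout.

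The endothelin ligand was among the genes with the widest difference. Edn1 was at 188, 175 and 29.8 CPM in the ITA-LNP libraries, against 1.18, 1.35, 0.38 and 0.98 CPM in the control-LNP libraries, from 2604 and 23 reads in all. Every ITA-LNP library lay above every control-LNP library, and ITA-LNP replicate 3 was well below the other 2. The means were 131 ± 87.9 CPM (SD, n = 3) and 0.974 ± 0.420 CPM (SD, n = 4), a ratio of 134. The log2 fold change was 5.70 ± 0.94 (SE; 95% interval 3.60 to 7.81; limma adjusted p = 0.00291), and without control-LNP replicate 2 it was 5.79 (adjusted p = 0.00146). The spread of Edn1 within ITA-LNP, highest over lowest 6.32, was wide for its level: the median of 2215 genes of like level was 1.75, and 1.13% of them spread more. Of the other endothelin ligands, Edn2 was at 0 in every library and Edn3 had 1 read, in control-LNP replicate 4.

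Ece1, the endothelin-converting enzyme, was at 206, 115 and 193 CPM in ITA-LNP, against 10.8, 0.748, 4.42 and 10.5 CPM in control-LNP. The groups did not overlap, and control-LNP replicate 2 was the lowest library. The means were 171 ± 49.1 and 6.62 ± 4.90 CPM (SD, n = 3 and 4), and the log2 fold change was 4.80 ± 0.85 (SE; 95% interval 2.90 to 6.70; limma adjusted p = 0.00404). Without that replicate it was 4.21 (adjusted p = 0.000446). In control-LNP replicate 2 Ece1 stood at 8.71% of the mean of the other control-LNP libraries, where the median of 3566 genes of like level was 2.03%. Of those genes, 75.7% stood at or below the share of Ece1. Ece2, a related converting enzyme, averaged 19.9 CPM in ITA-LNP and 4.65 CPM in control-LNP without passing the test (416 and 100 reads; log2 fold change 2.12, limma adjusted p = 0.197). Mme, the neprilysin gene, whose product degrades endothelins and natriuretic peptides, had 483 and 1096 reads (log2 fold change -0.95, limma adjusted p = 0.343).

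The endothelin receptors had different patterns of level, and the difference between them was not tested. Ednrb was at 19.3, 10.3 and 16.8 CPM in ITA-LNP, against 1.18, 0.150, 0 and 0.820 CPM in control-LNP, from 315 and 12 reads. All ITA-LNP libraries lay above all control-LNP libraries. The means were 15.5 ± 4.63 and 0.538 ± 0.558 CPM (SD, n = 3 and 4), with a log2 fold change of 3.45 ± 0.78 (SE; 95% interval 1.70 to 5.21; limma adjusted p = 0.0143) and of 3.33 without control-LNP replicate 2 (adjusted p = 0.00724). The call was lost under median centring (2.32, limma adjusted p = 0.132), without control-LNP replicate 3 (3.27, adjusted p = 0.0839) and without control-LNP replicate 4 (3.56, adjusted p = 0.0634).

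Ednra, the contractile receptor of smooth muscle, was at 29.6 CPM in ITA-LNP replicate 1 and at 0 in the other ITA-LNP libraries, while Acta2, a smooth muscle actin, was at 9341 to 12440 CPM in the same 3 libraries. In control-LNP it was at 0.591, 0, 0 and 0.656 CPM. ITA-LNP replicate 1 therefore held 189 of the 196 reads of this gene, and the groups overlapped. It was not tested under the filter, and with no filter the log2 fold change was 1.30 ± 1.13 (SE; limma adjusted p = 0.542). Among 3874 genes of like mean level in ITA-LNP, 30.8% had a 0 in at least 1 ITA-LNP library and 6.27% had a 0 in 2 of them. Of the reads of the receptor pair, Ednra took 60.6% in ITA-LNP replicate 1 (189 of 312; exact 95% interval 54.9% to 66.0%), 0 of 70 in replicate 2 (up to 5.13%) and 0 of 122 in replicate 3 (up to 2.98%). The intervals cover counting error only.

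In the angiotensin branch, Ace was at 103, 110 and 96.7 CPM in ITA-LNP, against 54.0, 1.64, 41.0 and 31.8 CPM in control-LNP. The groups did not overlap, the ITA-LNP libraries lay close together and control-LNP replicate 2 was far below the other 3. The means were 103 ± 6.48 and 32.1 ± 22.2 CPM (SD, n = 3 and 4), and the log2 fold change was 2.30 ± 1.01 (SE; 95% interval 0.02 to 4.57), which did not pass (limma adjusted p = 0.167). Without control-LNP replicate 2 the log2 fold change was smaller, 1.30 ± 0.30 (SE), and passed (limma adjusted p = 0.0132), with a ratio of means of 2.44. The spread of Ace in ITA-LNP, highest over lowest 1.13, was among the narrowest of its level, since 97.1% of 2736 genes of like level spread more. In control-LNP replicate 2 it stood at 3.89% of the mean of the other control-LNP libraries, near the median of 4.73% over 3926 genes of like level.

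Agtr1a, the main type 1 angiotensin receptor gene of the mouse, had 1 read in ITA-LNP replicate 2, 1 read in control-LNP replicate 1 and 0 in the other 5 libraries, so no difference was detectable at this depth. Its related copy Agtr1b had 17 reads, all in ITA-LNP replicate 1. Whether reads of the pair were split between the copies was not tested. None of the 4 tested genes among the 12 other renin-angiotensin genes passed the test. Agt, the angiotensinogen gene, had 57 reads in ITA-LNP (10, 47 and 0) and Ren1, the renin gene, 30 reads, all in ITA-LNP replicate 1. Both were at 0 in control-LNP. Cma1, a chymase of mast cells, had 48 reads in control-LNP and 0 in ITA-LNP. Enpep, which degrades angiotensin II, had 245 and 5 reads (log2 fold change 2.34, limma adjusted p = 0.179), and Atp6ap2, the prorenin receptor gene, 3340 and 1639 reads (1.86, adjusted p = 0.292). Agtrap, which binds the type 1 receptor, had 855 and 384 reads (1.74, adjusted p = 0.336), and the aminopeptidase gene Lnpep 455 and 379 (1.03, adjusted p = 0.631). Without control-LNP replicate 2 the fold changes of the last 3 were smaller, 0.73, 0.76 and 0.07 in the same order, and none of the 4 passed.

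**Figure D2:**
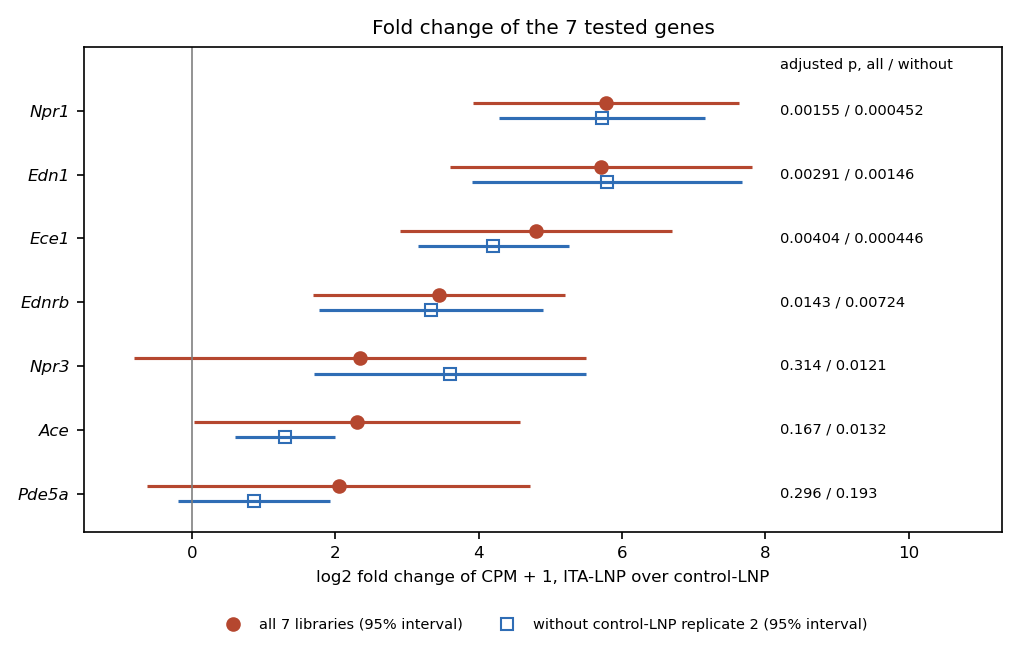
Log2 fold change of CPM + 1, ITA-LNP over control-LNP, for the 7 tested genes, with 95% intervals from limma over all 7 libraries (red circles) and without control-LNP replicate 2 (blue open squares); the adjusted p of each fit stands at the right. The intervals of Npr1, Edn1, Ece1, Ednrb and Ace lie above 0 in both fits, that of Npr3 only without the replicate and that of Pde5a in neither, and all 7 are narrower without it.

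Npr1, the guanylate cyclase receptor of atrial and B-type natriuretic peptides, had the smallest p of the 7 tested genes. It was at 60.7, 80.5 and 137 CPM in ITA-LNP, against 1.18, 0.449, 0.192 and 0.820 CPM in control-LNP, from 1932 and 15 reads. The groups lay far apart, with no overlap. The means were 92.8 ± 39.7 and 0.661 ± 0.433 CPM (SD, n = 3 and 4), a ratio of 140. The log2 fold change was 5.77 ± 0.83 (SE; 95% interval 3.92 to 7.63; limma adjusted p = 0.00155) and 5.72 without control-LNP replicate 2 (adjusted p = 0.000452).

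Npr3, the clearance receptor, was at 22.3, 11.9 and 72.4 CPM in ITA-LNP, against 1.97, 75.2, 0.577 and 1.64 CPM in control-LNP. Control-LNP replicate 2 held the highest value of all 7 libraries, and the other 3 control-LNP libraries lay below every ITA-LNP library. Over all libraries the log2 fold change was 2.34 ± 1.41 (SE; 95% interval -0.81 to 5.49; limma adjusted p = 0.314), and without that replicate it was 3.60 ± 0.82 (SE; adjusted p = 0.0121). Replicate 2 alone held 503 of the 526 control-LNP reads of Npr3, a level 53.9 times the mean of the other 3. Of 2407 genes at a like level in those 3 libraries, 26 (1.08%, Npr3 included) had a replicate 2 level at least 53.9 times their mean. In replicate 2, 62.8% of the 2407 were at 0. Of the reads of the receptor pair, Npr3 took 26.8%, 12.9% and 34.5% in the ITA-LNP libraries and 99.4% in control-LNP replicate 2 (503 of 506), against 10 of 16, 3 of 4 and 10 of 15 in the other control-LNP libraries.

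The ligands Nppb and Nppc were at 0 in all libraries, and Nppa had 1 read. None of the 3 tested genes among the 8 other natriuretic peptide genes passed the test. Npr2, the receptor of C-type natriuretic peptide, had 460 and 164 reads (log2 fold change 1.79, limma adjusted p = 0.323; 0.99 without control-LNP replicate 2). Ide, insulin-degrading enzyme, which also cleaves natriuretic peptides, had 2078 and 490 reads (2.80, adjusted p = 0.115) and passed without control-LNP replicate 2 (1.78, limma adjusted p = 0.00615). Furin, a protease that cuts peptide precursors, had 1385 and 1308 reads (0.29, adjusted p = 0.780; 0.14 without that replicate), and Corin, the enzyme that activates atrial natriuretic peptide, had 19 reads in control-LNP and 0 in ITA-LNP.

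Downstream of cGMP, Pde5a was at 130, 76.3 and 78.4 CPM in ITA-LNP, against 82.9, 0.897, 26.5 and 56.7 CPM in control-LNP. The groups overlapped, since control-LNP replicate 1 lay above ITA-LNP replicates 2 and 3. The means were 94.9 ± 30.3 and 41.8 ± 35.7 CPM (SD, n = 3 and 4), with a log2 fold change of 2.05 ± 1.19 (SE; 95% interval -0.62 to 4.72; limma adjusted p = 0.296) and of 0.86 ± 0.46 (SE; adjusted p = 0.193) without control-LNP replicate 2. In that replicate Pde5a stood at 1.62% of the mean of the other 3, where the median of 3554 genes of like level was 11.9%. Of those genes, 31.8% stood at or below the share of Pde5a.

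Prkg1, the kinase that cGMP activates, was at 0, 13.9 and 1.37 CPM in ITA-LNP, against 2.36, 0, 0 and 0 CPM in control-LNP, from 104 and 12 reads. The groups overlapped, and ITA-LNP replicate 2 held most of the reads. Below the filter, it gave a log2 fold change of 1.28 ± 0.92 (SE; limma adjusted p = 0.454) when no filter was used. Of 3109 genes of like mean level in ITA-LNP, 55.9% had a 0 in at least 1 ITA-LNP library.

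By level, in CPM of 3′ reads, the mean order in ITA-LNP was Ece1, Edn1, Ace, Pde5a, Npr1, Npr3, Ednrb, Ednra, Prkg1 and Agtr1a. Each neighbouring pair in this order had overlapping ranges over the ITA-LNP libraries, so no step of it exceeds the spread. In control-LNP without replicate 2 the order began with Pde5a (55.4 ± 28.2 CPM, SD, n = 3) and Ace (42.2 ± 11.1 CPM), whose ranges overlapped, and Ece1 followed at 8.58 ± 3.61 CPM. The other 7 averaged 1.40 CPM or less there.

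Set against the ITA-LNP mean of the same gene, the control-LNP mean was 0.712% for Npr1 and 0.744% for Edn1, 3.48% for Ednrb, 3.87% for Ece1, 31.1% for Ace, 44.0% for Pde5a and 55.9% for Npr3, the last being 3.93% without control-LNP replicate 2. Markers measured the same way gave 0.916% for Acta2 and 0.450% for Myh11. Cdh5, which encodes the endothelial cadherin, averaged 76.5 CPM in ITA-LNP and 0.904 CPM in control-LNP, while Pecam1, an endothelial marker that platelets and leukocytes also carry, averaged 226 and 204 CPM. Edn1 and Npr1 thus stood at a share near that of Myh11 and Cdh5, and Ace and Pde5a at a larger one. Pf4, a platelet gene, averaged 51.8 CPM in ITA-LNP and 2414 CPM in control-LNP.

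**Figure D3:**
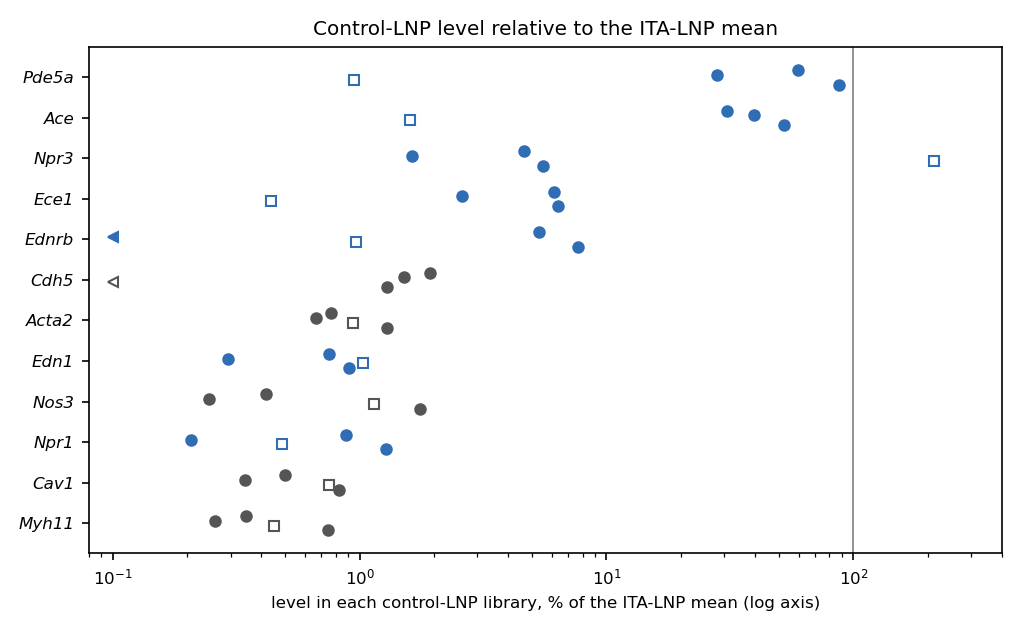
Level in each control-LNP library as a percentage of the ITA-LNP mean of the same gene, on a log axis, for the 7 tested genes (blue) and for Acta2, Myh11, Cdh5, Nos3 and Cav1 (grey); the open square is control-LNP replicate 2, a triangle at the left edge marks 0 reads, and the vertical line is 100%. Npr1 and Edn1 lie near 1% with the wall markers, Ace and Pde5a between 28.0% and 87.4% outside replicate 2, and Npr3 reaches 212% in replicate 2.

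Relative to the summed smooth muscle markers, the differences are a description, since no value could have passed the exact test at this number of libraries. On a log2 scale of gene over marker sum (each with 1 CPM added), ITA-LNP minus control-LNP was 0.50 for Edn1, 0.58 for Npr1, -0.40 for Ece1, -1.75 for Ednrb, -2.90 for Ace, -2.86 for Npr3 and -3.15 for Pde5a. The exact two-sided permutation p was 0.0571 to 0.686, and 0.0571 is the smallest that 3 against 4 libraries allow in this test. Ednrb and Npr3 stood at that limit. Without control-LNP replicate 2 the difference was -1.08 for Ece1, -1.68 for Npr3, -3.98 for Ace and -4.42 for Pde5a. Where the control-LNP level is near 1 CPM, as for Edn1, Npr1 and Ednrb, the added 1 CPM sets much of the ratio. Counted as reads per 1000 smooth muscle marker reads, Ace was at 4.57 to 5.95 in ITA-LNP, 71.6 to 93.6 in control-LNP replicates 1, 3 and 4 and 2.66 in replicate 2. Pde5a was at 3.70 to 7.48, 60.7 to 137 and 1.45 in the same order. Both genes were thus high per marker read in 3 control-LNP libraries and low in the fourth. Npr3 was at 0.632 to 3.42, 1.32 to 3.69 and 122, so its ranges overlapped outside replicate 2. The marker sum was made of different genes in the groups: Acta2 gave 56.4% of it in ITA-LNP and 18.8% in control-LNP, and Myl9, a myosin light chain also made by platelets, gave 3.76% and 70.6%.

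The other genes of the pathways were read from 8 lists of 103 genes, of which 68 were tested, 22 were higher and 3 lower, where 10.3% and 5.15% of all genes were. On leaving out control-LNP replicate 2, 69 were tested, 29 were higher and 8 lower, where 15.4% and 16% of all genes (1988 and 2065 of 12893) were. Genes such as Nos3, Pde1a and Ddah1 passed the filter only through their ITA-LNP level, so these counts and the list medians too are a description. Among them was the nitric oxide and soluble guanylate cyclase list, in which 4 of 6 tested genes (9 in the list) were higher and the median log2 fold change was 4.18. Nos3, the endothelial nitric oxide synthase, was at 58.8, 88.0 and 88.4 CPM in ITA-LNP and 0.192 to 1.38 CPM in control-LNP (log2 fold change 5.58 ± 0.82, SE; limma adjusted p = 0.00173). Cav1, the caveolar protein that binds it, averaged 955.5 and 5.77 CPM (7.19 ± 0.53, SE; adjusted p = 5.57e-05), and Ddah2, which degrades an inhibitor of nitric oxide synthases, 17.8 and 1.53 CPM (3.10 ± 0.88, SE; adjusted p = 0.0406). Ddah1 had 472 and 9 reads (3.32, limma adjusted p = 0.0769).

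The soluble guanylate cyclase subunits, which join as a pair, had different patterns of level. Gucy1a3, the alpha subunit, was at 120, 167 and 89.3 CPM in ITA-LNP and 1.495 to 4.23 CPM in control-LNP (log2 fold change 5.04 ± 0.75, SE; limma adjusted p = 0.0018). Gucy1b3, the beta subunit, was at 90.0, 108 and 218 CPM in ITA-LNP, against 93.2, 1.20, 56.9 and 132 CPM in control-LNP. Its groups overlapped, and it did not pass (1.86 ± 1.28, SE; limma adjusted p = 0.384). Without control-LNP replicate 2 its log2 fold change was 0.53 (limma adjusted p = 0.395). The difference between the subunits was not tested. Of the less abundant genes, Gucy1a2 had 148 reads in ITA-LNP, 146 of them in replicate 1, and 1 in control-LNP. Nos2, the inducible synthase, had 91 reads in ITA-LNP and 1 in control-LNP, and Nos1 had 16 and 5.

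Among 11 other phosphodiesterase genes, 9 were tested, 2 were higher and none lower, with a median log2 fold change of 0.67. In the fit that left out control-LNP replicate 2, 2 of 10 were higher and 1 lower, with a median of 0.36. Pde3a, a cGMP-inhibited enzyme of smooth muscle, was at 343, 333 and 356 CPM in ITA-LNP and 2.09 to 29.9 CPM in control-LNP (log2 fold change 4.79 ± 0.80, SE; limma adjusted p = 0.00312). Pde1a, a calcium-calmodulin-regulated enzyme, averaged 65.9 and 0.409 CPM (5.56 ± 0.81, SE; adjusted p = 0.00166). Pde9a, which prefers cGMP, had 184 and 2 reads (2.71, limma adjusted p = 0.0737).

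Of 11 partners and substrates of the cGMP kinase, all were tested, 5 were higher and 1 lower, with a median log2 fold change of 2.65. Ppp1r12b, a regulatory subunit of myosin phosphatase, averaged 298 and 9.04 CPM (log2 fold change 5.19 ± 0.81, SE; limma adjusted p = 0.00227), and Kcnmb1, the smooth muscle subunit of the large calcium-activated potassium channel, 126 and 3.80 CPM (4.97 ± 0.80, SE; adjusted p = 0.00263). Rgs2, which ends Gq signalling and also occurs in leukocytes, was the lower one, at 158 to 239 CPM in ITA-LNP and 532 to 1457 CPM in control-LNP (-2.02 ± 0.38, SE; limma adjusted p = 0.0053).

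All 22 G protein and calcium effectors were tested, of which 8 were higher and 2 lower, with a median log2 fold change of 1.88. The counts were 12 higher and 5 lower without control-LNP replicate 2, with a median of 1.42. Rgs5, a pericyte and smooth muscle regulator of G protein signalling, averaged 801 and 4.48 CPM (log2 fold change 7.27, limma adjusted p = 8.28e-05). Arhgef25, a guanine nucleotide exchange factor activated by Gq, averaged 94.0 and 0.397 CPM (6.09, adjusted p = 0.000952), and the phospholipase Plcb4 239.9 and 5.92 CPM (5.27, adjusted p = 0.00109). Of 25 other vasoactive receptors and ligands, 11 were tested, 3 were higher and none lower, with a median of 0.83. These 3 were Npy1r, a neuropeptide Y receptor (5.64, limma adjusted p = 0.00169), Ramp2, a partner of the adrenomedullin receptor (4.76, adjusted p = 0.00413), and Htr1b, a serotonin receptor (3.28, adjusted p = 0.0251).

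**Figure D4:**
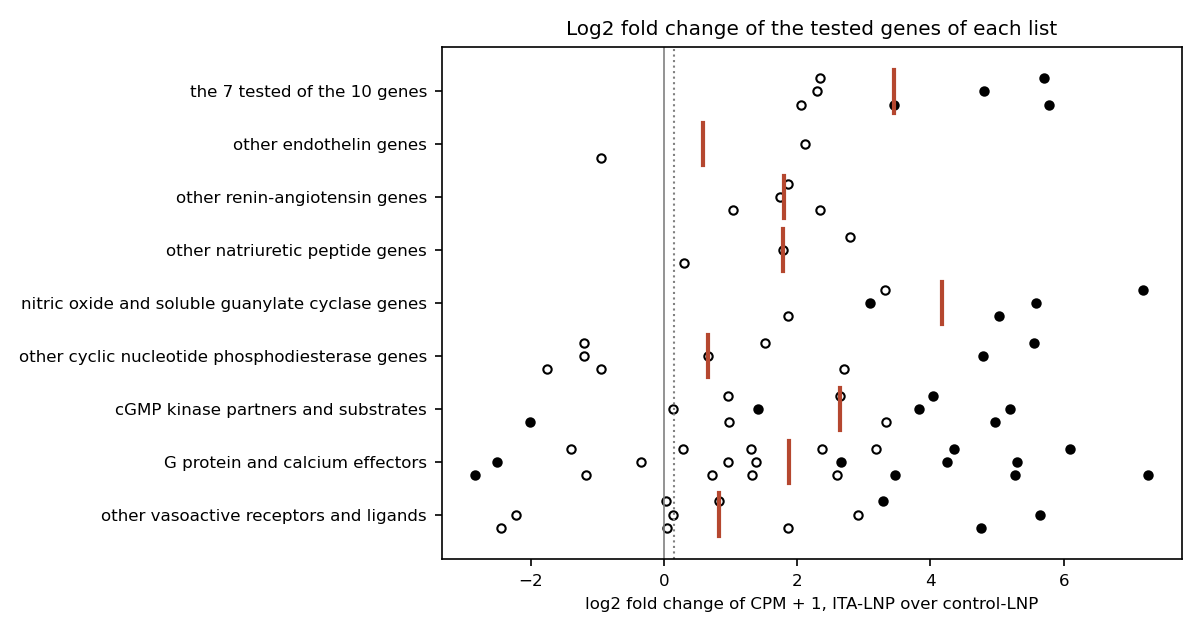
Log2 fold change of CPM + 1, ITA-LNP over control-LNP, of each tested gene of the 8 pathway lists and of the 7 tested genes (filled, limma adjusted p under 0.05; open, not past it; red bar, median of the list; dotted line, median of all genes tested, 0.15). The median is 4.18 for the nitric oxide list and 0.58 for the other endothelin genes, of which 2 were tested.

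The genes whose log2(CPM + 1) followed the 3 most abundant of the 10 most closely over the 7 libraries were Wwc2, Kifap3 and Pde3a for Ece1 (Pearson's r 0.997, 0.994 and 0.994), Strn3, Kdm1a and Rusc1 for Pde5a (0.997, 0.995 and 0.995) and Rfc5 and Slc35a1 for Ace (0.998 each). With 2 groups and control-LNP replicate 2 apart from both, many genes share such a pattern: 447, 498 and 676 genes had r above 0.95 with Ece1, Pde5a and Ace.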

How the data were processed

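Titles gave each sample's group and replicate number. They say NP, the treatment protocol says LNP, and the terms were read as one. Per the labels' protocols, 500 ng of total RNA went into QuantSeq 3′ mRNA libraries. Per the submitters' processing notes, reads were placed on mm10. Aligner, counter, annotation and the treatment of strand and molecular identifiers were not given in the sources used here.

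As deposited, the authors' values are log10 numbers. Raising 10 to each and subtracting 1 gave columns summing to 1000000, so they were read as log10(CPM + 1), and 100% came out as whole reads within 0.01. The written design assumed log2(CPM + 1), so the values were converted to it (pseudocount 1 CPM), which understates the change of low genes. Genes with a mean of at least 1 over all libraries (12636) were tested with limma-trend (limma 3.58.1, R 4.3.3), ITA-LNP against control-LNP without covariates, Benjamini-Hochberg adjustment and a threshold of 0.05. The fit was checked on simulated counts drawn from the means and spread of control-LNP replicates 1, 3 and 4, where 25 unchanged genes were called. That setting held no outlying library and not the spread within ITA-LNP, so the check does not cover them. Python 3.11.15, pandas 2.3.3, numpy 2.4.6, scipy 1.17.1 and matplotlib 3.10.9 served the tables, exact tests and plots. Genes of like level had a mean CPM within 2-fold of that of the gene described, over ITA-LNP or over control-LNP replicates 1, 3 and 4.

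The 10 genes and all lists were chosen with earlier results of these data known. Named besides the 10 genes were the 3 smallest p-values of each pathway list, every endothelin, renin-angiotensin, natriuretic peptide and nitric oxide list gene with at least 10 reads, 5 markers, and the 3 nearest genes of the 3 most abundant, of which 1 is not reported here. Pecam1, Cdh5, Acta2, Myh11 and Pf4 were those markers, and Myl9 and the genes at 0 were named after their values were seen. The alternatives were other filters, pseudocounts, scalings, variance models, sample weights, limma-voom on recovered reads, a replicate block, an adjusted p under 0.1, other marker sums and leaving out each library. Combinations of a filter or median centring with leaving out control-LNP replicate 2, and voom with no filter, were added after the data were seen.

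The other marker sums in ITA-LNP and control-LNP were 13333 to 15887 and 96.4 to 239.7 CPM (fibroblast), 738 to 786 and 3.44 to 16.2 (pericyte; Higd1b at 0 in all), 5837 to 7215 and 66.6 to 388 (white adipocyte; Adipoq and Lep at 0 in control-LNP, Lep also in ITA-LNP), 157 to 236 and 45.2 to 149 (Schwann cell and neuron; Th at 0 in control-LNP), 1332 to 2179 and 1226 to 1750.1 (macrophage), 38.5 to 193 and 1853 to 3597 (B cell), 27.3 to 46.0 and 390 to 774 (T cell), 45.3 to 85.5 and 904 to 25760 (neutrophil) and 0.687 to 20.3 and 0.897 to 78.1 (kidney and adrenal; Umod and Slc12a1 at 0 in all).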

Additional observations from a re-analysis of the deposited data

Results flagged for a closer look

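Among the 10 genes, 3 had a control-LNP library far from the other 3 of its group by Dixon's criterion at 95%, which takes the gap to the nearest library as a share of the group's range, here on the log2(CPM + 1) scale. Chance gives such a gap in about 1 in 20 groups, and Agtr1a, with 1 control-LNP read, was left out. Ace was at 1.64 CPM in control-LNP replicate 2, below the other 3 (gap over range 0.830). Npr3 was at 75.2 CPM in control-LNP replicate 2, above the other 3 (0.837). Prkg1 was at 2.36 CPM in control-LNP replicate 1, where the other 3 libraries were at 0, a pattern in which any read at all meets the criterion, so the chance above does not apply to it. Control-LNP replicate 2 also had the highest sums of its group for the smooth muscle (618 CPM), endothelial (456), fibroblast (239.7), white adipocyte (388), Schwann cell and neuron (149), macrophage (1750.1), platelet (14358, next 14099) and neutrophil (25760) markers and the lowest for the pericyte, B cell, T cell, and kidney and adrenal markers. Their part in these values was not tested.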

How the results depend on the processing

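Edn1, Ece1 and Npr1 stayed higher in ITA-LNP and past the threshold in 21 of 21 alternatives, with log2 fold changes of 4.41 to 6.60, 3.67 to 5.21 and 4.30 to 7.11. Ednrb passed in 17 of 21. It lost its call under the 3 settings given with its values and with the replicate block (3.56, limma adjusted p = 0.0899). Pde5a passed in none (adjusted p 0.166 to 0.496). Ace passed in 5 and Npr3 in 4. Besides the settings without control-LNP replicate 2, these were quantile normalization for Ace (1.60, adjusted p = 0.0386) and sample weights for Ace (1.49, 0.0342) and Npr3 (3.51, 0.00239). The cause was not tested.

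Over all genes 1957 passed. The count was 3015 with quantile normalization, 4343 with sample weights, 1387 to 4053 on leaving out 1 library (the highest without control-LNP replicate 2), and, without that replicate, 4325 with median centring and 3971 with no filter. Of the pathway list genes 25 passed, 41 with sample weights and 38 without that replicate and with no filter. Median centring moved the median of all genes by -1.13 and the share of higher among all calls from 66.7% to 37.2%, quantile normalization to 53.5% and sample weights to 48.4%. Leaving out control-LNP replicate 2 moved it to 49.1%.

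Libraries with the same replicate number showed no sign of pairing (correlations of deviations 0.01, -0.01 and -0.02). Those with different numbers ranged from -0.03 to 0.03. With so few libraries and control-LNP replicate 2 apart, a pairing could be missed. With the replicate block 1060 genes and 15 list genes passed.

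Relative to Acta2 and Myh11 only, Edn1 and Npr1 were at -1.19 and -1.12. Against the fibroblast sum they were at -0.92 and -0.85. The 1 CPM added to gene and sum sets much of these ratios, so their sign gives no direction. Without it, the control-LNP mean was 0.744% of the ITA-LNP mean for Edn1 and 0.712% for Npr1. That share was 0.916% for Acta2, 0.450% for Myh11 and 1.08% for the fibroblast sum. Relative to the smooth muscle markers, Edn1 ranged from -0.018 (without ITA-LNP replicate 1) to 1.44 on leaving out 1 library. Against the endothelial sum, Edn1 was 3.51, Npr1 3.58, Ednrb 1.26, Ece1 2.60, Ace 0.10, Npr3 0.15 and Pde5a -0.14. Pecam1, which platelets and leukocytes also carry, averaged 226 of the 1455 CPM of this sum in ITA-LNP and 204 of 328 CPM in control-LNP. The control-LNP mean of the sum was 22.5% of the ITA-LNP mean, and that of Cdh5 1.18%. These ratios therefore do not give levels per endothelial cell. With 23, 12 and 15 control-LNP reads of Edn1, Ednrb and Npr1, the size of their differences is limited by depth.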

Other observations

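Pde11a, a phosphodiesterase gene that acts on cAMP and cGMP, was, like Npr3, far higher in control-LNP replicate 2 than in the other control-LNP libraries. It was at 61.4 CPM there, at 3.77 to 5.58 CPM in the other control-LNP libraries and at 0.941, 0.295 and 11.4 CPM in ITA-LNP. It was chosen after its values were seen, and it did not pass the test (limma adjusted p = 0.399).

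Lower in ITA-LNP among the effectors of G protein signalling were Arrb2, which encodes the receptor-desensitizing beta-arrestin 2, and Adrbk1, a receptor kinase gene, both outside the genes named by rule. Arrb2 averaged 13.7 ± 4.92 CPM (SD, n = 3) and 99.6 ± 7.84 CPM (SD, n = 4), with a log2 fold change of -2.83 (limma adjusted p = 0.00653). Adrbk1 averaged 21.2 ± 10.03 and 120 ± 30.7 CPM, with a log2 fold change of -2.51 (limma adjusted p = 0.0109). The groups did not overlap for either gene.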
